A study of Homo sapiens with 30 samples.

Results

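Lineage 45 is a population derived from MDA-MB-231, an established human breast cancer cell line of the triple-negative type, which lacks the estrogen and progesterone receptors and HER2 amplification. The 6 libraries described here are the 3 of lineage 45 from co-culture and the 3 of lineage 45 in isolation, chosen by their labels from 30 libraries of bulk RNA in all. Lineage 45 from co-culture had spent 15 days in a mixture of 6 members, passaged through a bottleneck every 3 days, and was recovered by fluorescence-activated cell sorting. Lineage 45 in isolation was grown alone for about 24 h. Both groups grew in RPMI-1640 with 10% dialyzed fetal bovine serum and 2 mM L-glutamine, carry the genotype label wt and received no drug. The series title sets the samples in a study of clones that exchange soluble metabolites. The labels give neither the property used for sorting nor the number of founder cells, and they do not say that replicates were cultured separately, so p-values measure only the spread between libraries, which may be technical. Culture time, sorting and the RNA extraction kit also differed between the groups and cannot be told apart from co-culture itself. In bulk RNA, fewer cells that express a gene and less of its RNA per cell also cannot be told apart.

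The summed estimated counts, in units of 1000000, were 35.2, 35.4 and 35.2 in the co-culture libraries and 34.9, 35.7 and 38.8 in the isolation libraries. Levels below are counts per 1000000 with TMM scaling (CPM), values after CPM means are ± SD, values after log2 fold changes are ± SE, and n = 3 in each group. The fold change is co-culture over isolation, so a negative log2 value means lower from co-culture. On a principal component analysis of the 6 libraries, PC1 held 67.5% of the variance and separated the groups, at -51.1 to -34.1 for co-culture and 37.1 to 42.2 for isolation. PC2 held 11.3% and set co-culture replicate 1, at 31.2, apart from co-culture replicates 2 and 3, at -10.8 and -17.9. Markers of the mesenchymal parental line were present in both groups: VIM, which encodes vimentin, had 3897 ± 331 CPM from co-culture and 3546 ± 251.5 CPM in isolation, and AXL, a receptor kinase, had 1517 ± 145 CPM from co-culture and 1333 ± 60.5 CPM in isolation.

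The label of the sorted libraries was checked before the results. Genes were taken as marks of a lineage where they were at least 8-fold above both other isolated lineages and at least 5 CPM. Lineage 45 had 3 such genes, COX7B2, CST1 and SEMA3E, with a summed level of 34.7, 27.1 and 33.2 CPM from co-culture and 68.6, 54.0 and 41.8 CPM in isolation. CST1 fell, with 6.87, 5.62 and 12.9 CPM in co-culture libraries, against 53.95, 40.2 and 26.7 CPM in isolation libraries. SEMA3E rose (log2 0.76 ± 0.16), and COX7B2 did not pass (log2 0.56 ± 0.26, adjusted p = 0.102). The 3 marks summed to 23.8, 23.9 and 23.7 CPM in the libraries labelled 35 from co-culture. In isolated lineage 35 they summed to 0.405 to 0.904 CPM. These marks therefore separate lineage 45 poorly from the libraries labelled 35 from co-culture. Lineage 22 had 30 such marks, and 24 of them rose and 2 fell in lineage 45 from co-culture. Over all genes tested 18.6% were higher and 23.2% lower. The 30 marks were chosen partly for low levels in isolated lineage 45, the baseline here, so a rise was favoured in advance. Their summed level was 68.4, 92.8 and 77.6 CPM in lineage 45 from co-culture, against 17.9, 15.5 and 16.5 CPM in lineage 45 in isolation. In lineage 22 it was 319 to 350.3 CPM from co-culture and 459.5 to 488.7 CPM in isolation. In the libraries labelled 35 it was 112, 113 and 121 CPM from co-culture and 6.75 to 8.87 CPM in isolation. A higher level from co-culture was thus not particular to lineage 45. The median gene of these 30 stood at 10.4% of the level of isolated lineage 22 in lineage 45 from co-culture, against 3.44% in lineage 45 in isolation. Single genes ranged from 0.997% for the exporter ABCG1 to 106% for EMB. MAGEB2, an antigen gene of the testis that had no count in isolated lineage 45, reached 4.52% of its level in lineage 22 from co-culture, and FRMD3 reached 39.1%. The 9 marks of lineage 35 summed to 9.93, 10.6 and 9.57 CPM from co-culture and 6.81, 7.16 and 7.01 CPM in isolation, against 207 to 222.5 CPM in isolated lineage 35. Across genes the co-culture libraries of lineage 45 correlated at a mean r of 0.989 with each other, 0.984 with lineage 35 from co-culture, 0.979 with lineage 22 from co-culture and 0.970 with lineage 45 in isolation. Whether other cells entered the sorted lineage 45 population was not tested.

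Markers of other cell types differed by list. The fibroblast markers summed to 7.78, 6.52 and 7.44 CPM from co-culture and 7.14, 8.102 and 6.69 CPM in isolation, with 2 of 3 tested lower, and COL3A1, DCN and PDGFRA were too low to test. Leukocyte markers summed to 252, 242 and 259 CPM from co-culture and 299, 312 and 341 CPM in isolation, almost all of it from CD68 and LAPTM5, lysosomal proteins that are not limited to leukocytes. Of 4 tested 1 was lower, LAPTM5, and the T cell marker CD3E was too low to test. Markers of endothelial and erythroid cells summed to 125, 134 and 138 CPM from co-culture and 121, 117 and 123 CPM in isolation, and none of 4 tested passed. The groups do not overlap in this sum, and the part of such cells was not tested. Luminal epithelial markers summed to 1818, 1986 and 1955 CPM from co-culture and 1462, 1331 and 1279 CPM in isolation, again without overlap. Among them 3 of 7 were higher and 1 lower, and among markers of basal cells with mesenchymal features 3 of 10 were higher and 4 lower. Over all genes tested 18.6% were higher and 23.2% lower, and counts in marker lists this small are description only.

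Cells adjust cholesterol synthesis to supply: when membrane cholesterol is low, the transcription factor SREBP2 leaves the endoplasmic reticulum and turns on the genes of the mevalonate and sterol pathway, and when sterols are abundant, the LXR receptors turn on the exporters instead. Interferon signalling activates a complex that holds STAT2 and IRF9, which binds the interferon-stimulated response element in antiviral and antigen presentation genes. MDA-MB-231 cells are known for a mesenchymal state, a mutation that drives the RAS and MAPK pathway, and steady production of matrix, proteases and cytokines.

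Of 14570 genes tested among 26475 in the table, 2711 were higher (18.6%) and 3375 lower (23.2%) in lineage 45 from co-culture (edgeR, BH-adjusted p < 0.05). Those shares are the background for the list counts below. The median log2 fold change was 0.42 among the higher genes, -0.63 among the lower genes and -0.03 over all genes tested. At least 4-fold changes were found for 161 higher and 225 lower genes.

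Among the largest rises were genes with roles in lipid handling, adhesion and peptide signalling, and whole-gene positions below are on GRCh38. The largest rises and falls, also those at 100 CPM or more, were taken only from genes whose groups did not overlap. PARP8 (chromosome 5, 50665899 to 50846522, plus strand), an ADP-ribosyltransferase, had 5.88, 5.12 and 5.58 CPM in co-culture libraries, against 0.504, 0.108 and 0.426 CPM in isolation libraries. All co-culture values lay about an order of magnitude or more above all isolation values, and the rise was 15.8-fold (log2 3.98 ± 0.25, adjusted p = 4.17e-10). ADD2 (chromosome 2, 70607618 to 70768225, minus strand), the beta subunit of the membrane skeleton protein adducin, had 6.96, 9.89 and 7.67 CPM in co-culture libraries, against 0.504, 0.864 and 1.18 CPM in isolation libraries. The rise was 9.502-fold (log2 3.25 ± 0.38). C6orf223 (chromosome 6, 44000580 to 44005958, plus strand) had 16.01, 8.84 and 17.8 CPM in co-culture libraries, against 1.37, 1.32 and 1.05 CPM in isolation libraries, with co-culture replicate 2 the lowest of its group. KISS1, which encodes the precursor of the kisspeptin hormones, had 34.8, 34.8 and 32.1 CPM in co-culture libraries, against 4.09, 3.08 and 2.73 CPM in isolation libraries. LSR, a lipoprotein receptor of tricellular junctions, had 40.4, 40.4 and 41.9 CPM in co-culture libraries, against 3.36, 2.38 and 2.33 CPM in isolation libraries, and EMB, a chaperone of lactate transporters, had 10.4, 9.13 and 7.19 CPM in co-culture libraries, against 0.05603, 0.02701 and 0.0501 CPM in isolation libraries. In isolation EMB was near the limit of detection in every library, and it was detected at 7 CPM or more in every co-culture library. FRMD3, a FERM domain protein, had 13.04, 20.7 and 16.3 CPM in co-culture libraries, against 0.196, 0.108 and 0.175 CPM in isolation libraries, and PTGFRN, which binds the prostaglandin F receptor, had 7.81, 8.07 and 8.52 CPM in co-culture libraries, against 0.196, 0.08102 and 0.175 CPM in isolation libraries. NLRP2, an inflammasome gene, had 3.48, 7.26 and 7.47 CPM in co-culture libraries, against 0.02801, 0.05402 and 0 CPM in isolation libraries, or 635 against 3 counts in sum. EMB, FRMD3, NLRP2 and ADD2 are among the genes that mark isolated lineage 22, where EMB stood at 8.39 CPM, FRMD3 at 27.9 CPM, NLRP2 at 21.3 CPM and ADD2 at 12.4 CPM.

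**Figure D1:**
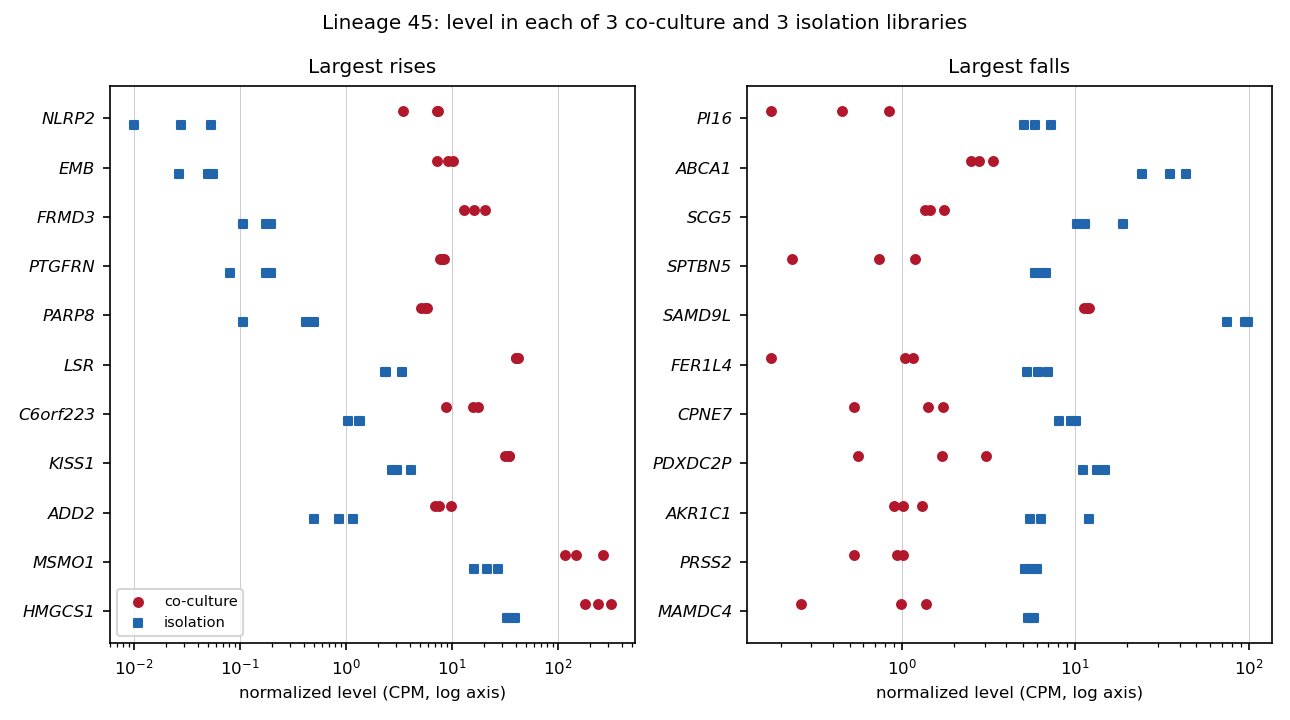
Level of 11 of the largest rises and 11 of the largest falls in each library of lineage 45, in CPM on a log axis, with circles for co-culture and squares for isolation; the isolation library of NLRP2 with 0 counts is drawn at 0.01. Genes were taken only where the groups do not overlap. HMGCS1 and MSMO1 have the highest co-culture levels among the rises shown, and SAMD9L has the highest isolation level among the falls shown.

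The largest falls included surface, secreted and antiviral genes. CPNE7 (chromosome 16, 89575768 to 89597246, plus strand), a calcium-dependent membrane-binding copine, had 1.73, 0.527 and 1.42 CPM in co-culture libraries, against 10.1, 8.08 and 9.49 CPM in isolation libraries and fell 7.502-fold (log2 -2.91 ± 0.27, adjusted p = 2.29e-07). SPTBN5 (chromosome 15, 41848144 to 41894077, minus strand), a beta spectrin, had 1.19, 0.234 and 0.736 CPM in co-culture libraries, against 6.75, 5.83 and 6.34 CPM in isolation libraries. It fell 8.69-fold, with co-culture values that spread over several-fold. MAMDC4 (chromosome 9, 136850943 to 136860799, plus strand) had 1.39, 0.263 and 0.991 CPM in co-culture libraries, against 5.35, 5.78 and 5.53 CPM in isolation libraries, and PRSS2, a trypsinogen with near-identical copies, had 0.933, 0.527 and 1.02 CPM in co-culture libraries, against 6.02, 5.54 and 5.11 CPM in isolation libraries. PI16, a secreted peptidase inhibitor family member, had 0.453, 0.176 and 0.849 CPM in co-culture libraries, against 5.04, 7.24 and 5.86 CPM in isolation libraries. SCG5, a chaperone of the secretory pathway, had 1.75, 1.46 and 1.36 CPM in co-culture libraries, against 10.3, 11.4 and 18.8 CPM in isolation libraries, and AKR1C1, a steroid-metabolizing reductase, had 1.02, 0.907 and 1.302 CPM in co-culture libraries, against 12.05, 5.51 and 6.31 CPM in isolation libraries. FER1L4 and PDXDC2P are pseudogenes whose reads can be shared with related genes. FER1L4 had 1.16, 0.176 and 1.05 CPM in co-culture libraries, against 7.003, 6.08 and 5.28 CPM in isolation libraries, and PDXDC2P had 3.05, 0.556 and 1.698 CPM in co-culture libraries, against 14.8, 13.4 and 11.2 CPM in isolation libraries.

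Among genes at 100 CPM or more, CYP1B1 (chromosome 2, 38066973 to 38109902, minus strand), a cytochrome P450 that oxidizes estrogens and is a classic target of the aryl hydrocarbon receptor, had 43.9, 54.4 and 52.2 CPM in co-culture libraries, against 242, 274 and 290.2 CPM in isolation libraries. It fell 5.36-fold (log2 -2.42 ± 0.19, adjusted p = 1.57e-07). DDIT4 (chromosome 10, 72273920 to 72276036, plus strand), an inhibitor of mTORC1 that responds to stress, had 139, 90.9 and 115 CPM in co-culture libraries, against 32.4, 31.9 and 22.5 CPM in isolation libraries and rose 3.98-fold (log2 1.99 ± 0.25). The pseudogene HERC2P2, which is similar to the HERC2 gene and its other copies, had 36.4, 7.52 and 24.7 CPM in co-culture libraries, against 95.9, 110.4 and 103 CPM in isolation libraries and fell 4.51-fold (log2 -2.17 ± 0.57, adjusted p = 0.00905).

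Nearly the whole cholesterol pathway rose. Of 25 genes of sterol synthesis and uptake 24 were higher and 0 lower, against a background of 18.6% higher, with a median log2 fold change of 1.71. The summed level of the list was 6337, 5132 and 5734 CPM in co-culture libraries, against 1861, 1826 and 1868 CPM in isolation libraries. Every co-culture library was above every isolation library, and co-culture replicate 2 was the lowest of its group. At the entry of the pathway, HMGCS1 (chromosome 5, 43289395 to 43313512, minus strand), which makes HMG-CoA, had 318, 179 and 242 CPM in co-culture libraries, against 33.5, 34.8 and 39.4 CPM in isolation libraries. The rise was 6.86-fold (log2 2.78 ± 0.18, adjusted p = 1.36e-08). In the mevalonate steps, MVK, MVD and IDI1 rose 3.896-fold, 3.51-fold and 4.204-fold, while PMVK did not pass (log2 0.23 ± 0.10, adjusted p = 0.0611). Squalene synthesis and oxidation followed the same direction, with FDFT1 at 371 ± 56.6 CPM from co-culture and 72.1 ± 2.58 CPM in isolation and SQLE at 84.97 ± 2.59 CPM from co-culture and 20.7 ± 1.14 CPM in isolation.

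In the later steps that turn lanosterol into cholesterol, MSMO1 (chromosome 4, 165327623 to 165343160, plus strand), a C4 methyl sterol oxidase, had 269, 149 and 117 CPM in co-culture libraries, against 16.2, 21.7 and 27.1 CPM in isolation libraries. The rise was 8.22-fold (log2 3.04 ± 0.36, adjusted p = 2.87e-05). DHCR7 (chromosome 11, 71428193 to 71452868, minus strand), which makes cholesterol in the last step, had 253, 214 and 264 CPM in co-culture libraries, against 54.2, 47.2 and 46.7 CPM in isolation libraries and rose 4.94-fold. HSD17B7 rose 4.27-fold, CYP51A1 3.202-fold, SC5D 3.16-fold, NSDHL 2.44-fold, LSS 2.24-fold and TM7SF2 1.99-fold. The smallest rise that passed was that of EBP, a sterol isomerase, at 1.49-fold. Among regulators, INSIG1 (chromosome 7, 155297776 to 155310235, plus strand), which holds SREBP2 in the endoplasmic reticulum when sterols are abundant, had 389, 231 and 298 CPM in co-culture libraries, against 49.9, 58.5 and 61.7 CPM in isolation libraries. SREBF2, which encodes SREBP2 itself, rose 2.52-fold.

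Fatty acid genes rose less evenly. Of 19 tested 13 were higher and 0 lower, with a median log2 of 0.51. SCD, the stearoyl-CoA desaturase, had 1342, 929 and 1292 CPM in co-culture libraries, against 269.5, 227 and 199 CPM in isolation libraries. FADS2, the first desaturase of polyunsaturated fatty acids, had 449.9 ± 66.97 CPM from co-culture and 117 ± 13.3 CPM in isolation, and FASN, the fatty acid synthase, had 1006 ± 142 CPM from co-culture and 348 ± 31.9 CPM in isolation. SREBF1, which encodes the related factor SREBP1, did not pass (log2 0.30 ± 0.18, adjusted p = 0.206), nor did GPAM and ELOVL1 (log2 0.04 and 0.05). The acetate-using enzyme ACSS2 rose 2.17-fold. NPC1, which moves cholesterol out of lysosomes, had 189 ± 5.59 CPM from co-culture and 118 ± 6.87 CPM in isolation, and LIPA, the lysosomal acid lipase, had 92.9 ± 25.9 CPM from co-culture and 62.4 ± 4.94 CPM in isolation.

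LXR targets went the other way. Of 9 tested 6 were lower and 1 higher, against a background of 23.2% lower. ABCA1 (chromosome 9, 104781002 to 104928237, minus strand), which exports cholesterol to apolipoprotein A-I, had 2.77, 2.52 and 3.34 CPM in co-culture libraries, against 43.5, 35.3 and 24.3 CPM in isolation libraries. It fell 11.9-fold (log2 -3.58 ± 0.33, adjusted p = 1.77e-06), and the isolation libraries spread more widely than the co-culture libraries. MYLIP, a ubiquitin ligase of lipoprotein uptake, had 8.06, 6.23 and 7.36 CPM in co-culture libraries, against 22.8, 17.96 and 16.7 CPM in isolation libraries. ABCG1 had 0.0761 ± 0.0322 CPM from co-culture and 0.636 ± 0.252 CPM in isolation, levels at which few counts lie behind each value. The receptor genes moved little: NR1H3 rose 1.39-fold and NR1H2 did not pass (log2 -0.01).

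Promoter windows of 4 sterol genes are shown because the NF-Y factor, which binds the CCAAT box, acts beside SREBP on this pathway. CCAAT was searched on both strands of the 250 bases before and 50 after the RefSeq start site, each motif on its own, so that matches of different motifs may overlap. It was found in 15 of 18 matched promoters of the sterol list, against 35.7% of 27305 promoters in the table. Among tested genes it was found in 39.4% of the higher, 34.2% of the lower and 36.7% of those not called. The sterol regulatory element core, searched as TCACNCCAC, was found in 1 of the 18, against 1.15% of all promoters. The windows below lie upstream of the start site on GRCh38.p14 (RefSeq), read 5′ to 3′ on the strand of the gene, with each CCAAT or its complement ATTGG in capitals. They are HMGCS1 at chr5:43313483-43313592 (minus strand), MSMO1 at chr4:165327514-165327653 (plus), DHCR7 at chr11:71448414-71448513 (minus) and INSIG1 at chr7:155297663-155297752 (plus). RefSeq start sites can differ from those of GENCODE, used for whole-gene positions, so windows can overlap those spans. The DHCR7 window lies inside its GENCODE span.
HMGCS1: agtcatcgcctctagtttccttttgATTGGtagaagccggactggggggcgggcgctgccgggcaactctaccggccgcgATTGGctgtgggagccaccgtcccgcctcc
MSMO1: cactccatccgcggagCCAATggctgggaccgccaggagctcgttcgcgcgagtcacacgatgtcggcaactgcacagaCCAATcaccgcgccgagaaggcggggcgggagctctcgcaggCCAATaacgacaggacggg
DHCR7: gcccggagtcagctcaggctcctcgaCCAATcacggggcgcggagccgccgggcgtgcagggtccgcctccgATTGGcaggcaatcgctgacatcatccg
INSIG1: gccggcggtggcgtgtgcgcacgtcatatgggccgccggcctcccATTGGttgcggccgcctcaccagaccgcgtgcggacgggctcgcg
MSMO1 has 3 matches in its window, HMGCS1 and DHCR7 have 2 each and INSIG1 has 1.

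Interferon-stimulated genes fell, but not all of them. Of 36 tested 30 were lower and 0 higher (1 higher by DESeq2 or without co-culture replicate 3), against 23.2% lower in the background, and the median log2 was -1.07. The summed level was 1212, 1056 and 1162 CPM from co-culture, against 2448, 2692 and 2513 CPM in isolation. SAMD9L (chromosome 7, 93130055 to 93148369, minus strand), a restriction factor next to SAMD9 on chromosome 7, had 11.7, 11.3 and 12.03 CPM in co-culture libraries, against 74.8, 99.5 and 95.2 CPM in isolation libraries. Its co-culture libraries were close to each other and far below isolation, a fall of 7.68-fold (log2 -2.94 ± 0.12, adjusted p = 1e-12). SAMD9 (chromosome 7, 93099513 to 93118023, minus strand) had 36.6, 30.5 and 26.7 CPM in co-culture libraries, against 135, 193 and 181 CPM in isolation libraries. Both genes lie on chromosome 7, whose genes had a median log2 fold change of -0.29, and the part of that shift in these falls was not tested. IFI44, a gene induced in hepatitis C infection, had 29.4 ± 6.32 CPM from co-culture and 103 ± 7.54 CPM in isolation, and HERC6, a ubiquitin ligase family member, had 22.8 ± 0.807 CPM from co-culture and 76.8 ± 4.79 CPM in isolation.

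Direct effectors and sensors of viral RNA fell as well. IFIT1 (chromosome 10, 89392546 to 89406486, plus strand), which binds RNA without the host cap, had 85.3, 60.2 and 72.2 CPM in co-culture libraries, against 139, 189.5 and 169 CPM in isolation libraries. OAS2, which makes the 2-5A second messenger, had 22.8 ± 2.32 CPM from co-culture and 75.5 ± 5.67 CPM in isolation, and DDX60, a helicase, had 36.2, 29.6 and 31.4 CPM in co-culture libraries, against 85.3, 99.4 and 96.2 CPM in isolation libraries. IFIH1, which encodes the sensor MDA5, fell 3.02-fold and DDX58, which encodes RIG-I, 2.04-fold. Of the pathway's own factors, STAT2 fell 2.01-fold (log2 -1.01 ± 0.14) and IRF9 did not pass (log2 -0.27 ± 0.12, adjusted p = 0.0699). BST2, IRF7, IFI35 and IFIT5 did not pass either (log2 0.09, 0.16, -0.06 and 0.18).

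Nearly all HLA class I genes fell, by a smaller median. Of 16 class I and peptide loading genes 15 were lower, with a median log2 of -0.69. B2M, the light chain of every class I molecule, had 568, 423 and 424 CPM in co-culture libraries, against 587, 668 and 650.2 CPM in isolation libraries and fell 1.35-fold (log2 -0.43 ± 0.10). TAP1, a subunit of the peptide transporter, fell 1.32-fold, and the tapasin gene TAPBP did not pass (log2 -0.24 ± 0.12, adjusted p = 0.102). The trimming peptidase ERAP2 fell 3.01-fold and the immunoproteasome subunit PSMB9 2.83-fold. NLRC5, the class I transactivator, had 9.14, 9.86 and 13.5 CPM in co-culture libraries, against 24.5, 24.4 and 22.8 CPM in isolation libraries. HLA-B and HLA-C fell 2.13-fold and 1.58-fold, and reads may be shared among these similar genes.

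HLA class II genes had the lowest median of these lists. Of 11 tested 10 were lower, with a median log2 of -1.77. CD74 (chromosome 5, 150401637 to 150412929, minus strand), the invariant chain that guards the class II groove, had 41.8, 34.4 and 48.03 CPM in co-culture libraries, against 231, 211 and 183 CPM in isolation libraries. The fall was 5.03-fold (log2 -2.33 ± 0.18, adjusted p = 5.08e-08). CIITA, the master regulator of class II, had 3.196, 2.604 and 3.42 CPM in co-culture libraries, against 10.9, 10.3 and 10.4 CPM in isolation libraries and fell 3.42-fold. HLA-DRA had 3.65, 2.52 and 3.23 CPM in co-culture libraries, against 17.98, 16.3 and 12.5 CPM in isolation libraries and the lysosomal protease CTSS 2.47 ± 0.204 CPM from co-culture and 8.42 ± 1.07 CPM in isolation.

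Promoter windows of 6 of these genes are shown because they carry the core of the interferon-stimulated response element, searched as GAAANNGAA on both strands. It was found in 19 of 27 matched promoters of the interferon list and 7 of 13 of the class I list, against 8.29% of all 27305 promoters. Among tested genes with a promoter in the table, it was found in 7.67% of the lower, 6.31% of the higher and 6.09% of those not called. Among those that fell at least 2-fold it was found in 66 of 550. The windows lie upstream of the start site on GRCh38.p14, read on the strand of the gene, with matches in capitals. They are SAMD9 at chr7:93118070-93118159 (minus strand), DDX60 at chr4:168318778-168318867 (minus), IFIT1 at chr10:89392473-89392562 (plus), EPSTI1 at chr13:42992252-42992341 (minus), B2M at chr15:44711332-44711421 (plus) and TAP1 at chr6:32853790-32853879 (minus).
SAMD9: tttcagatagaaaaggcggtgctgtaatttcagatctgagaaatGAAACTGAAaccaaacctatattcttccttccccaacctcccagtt
DDX60: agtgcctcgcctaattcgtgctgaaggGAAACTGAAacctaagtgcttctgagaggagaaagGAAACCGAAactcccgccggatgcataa
IFIT1: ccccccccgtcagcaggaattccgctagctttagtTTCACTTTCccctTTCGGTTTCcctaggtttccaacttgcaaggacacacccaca
EPSTI1: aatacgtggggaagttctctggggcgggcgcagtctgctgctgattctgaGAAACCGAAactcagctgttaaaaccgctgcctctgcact
B2M: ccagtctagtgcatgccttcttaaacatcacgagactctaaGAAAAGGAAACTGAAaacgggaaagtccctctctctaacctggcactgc
TAP1: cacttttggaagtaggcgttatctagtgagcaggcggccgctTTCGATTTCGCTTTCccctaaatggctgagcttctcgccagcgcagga
In IFIT1 and TAP1 the matches read as the complement, and in B2M and TAP1 a pair of matches overlaps within 1 run of capitals. SAMD9, with 1 match, fell 5.44-fold, and B2M, with an overlapping pair, fell 1.35-fold.

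**Figure D2:**
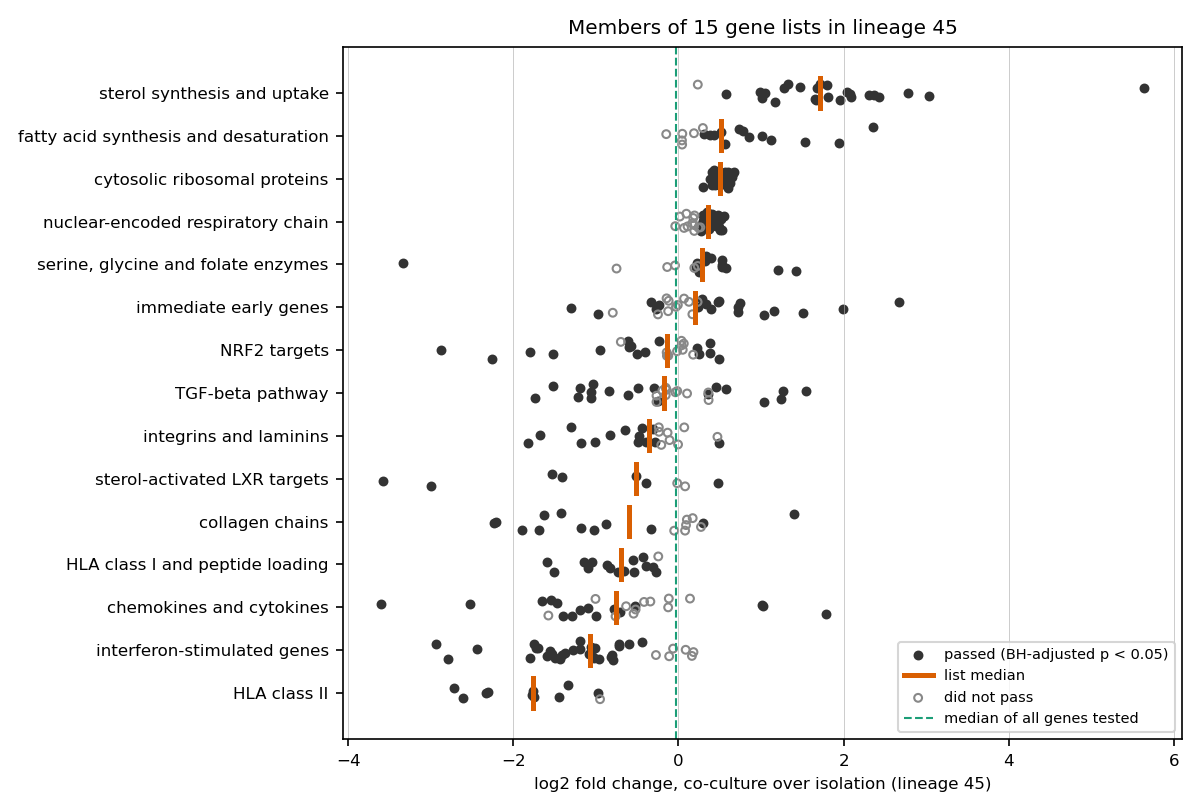
Log2 fold change of each tested member of 15 gene lists in lineage 45, co-culture over isolation, with filled points for members that passed, open points for those that did not, a vertical bar for the list median and a dashed line for the median of all genes tested (-0.03). Sterol genes have the highest median (1.71), ribosomal protein genes form a tight group near 0.50, and HLA class II genes have the lowest median (-1.77).

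More cytokine genes were lower than higher. Of 27 chemokine and cytokine genes 13 were lower and 3 higher. CXCL8, a neutrophil attractant, had 3.85, 3.48 and 3.34 CPM in co-culture libraries, against 17.4, 6.91 and 6.91 CPM in isolation libraries, and IL6 had 3.76, 2.81 and 4.67 CPM in co-culture libraries, against 12.3, 10.3 and 8.69 CPM in isolation libraries. CSF2, which encodes GM-CSF, fell 2.14-fold, and TNFSF10, which encodes the death ligand TRAIL, fell 2.63-fold. IL11 (chromosome 19, 55364389 to 55370463, minus strand), a cytokine of the IL-6 family, rose instead, with 137, 156 and 137 CPM in co-culture libraries, against 38.3, 46.9 and 39.4 CPM in isolation libraries. IL18 also rose 2.03-fold. Because IL11 is abundant, the summed CPM of the list was higher from co-culture (411, 384 and 402) than in isolation (342, 340.1 and 310.4). Under a filter of at least 5 CPM in 3 libraries, 7 cytokine genes were lower.

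In the NF-kappaB list 8 of 15 genes were lower and 0 higher, and 5 were lower without isolation replicate 1 or without isolation replicate 2. BIRC3, an inhibitor of apoptosis, had 17.7 ± 1.16 CPM from co-culture and 38.2 ± 6.22 CPM in isolation, and RELB, a subunit of the alternative pathway, 10.9 ± 1.43 CPM from co-culture and 18.99 ± 3.57 CPM in isolation. NFKB1 did not pass (log2 -0.12). Prostaglandin genes split into 4 higher and 3 lower of 13. The inducible cyclooxygenase PTGS2 had 1.22, 0.819 and 0.849 CPM in co-culture libraries, against 5.94, 3.32 and 2.805 CPM in isolation libraries, and the constitutive PTGS1 had 6.99, 9.89 and 7.27 CPM in co-culture libraries, against 3.502, 4.402 and 3.18 CPM in isolation libraries. PTGS2 fell 4.16-fold and PTGS1 rose 2.18-fold, while the synthase PTGES did not pass (log2 0.34 ± 0.25).

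Immediate early genes, which respond to growth signals and to handling of cells within minutes, were mixed. Of 30 tested 14 were higher and 5 lower. FOS had 15.9, 35.3 and 50.5 CPM in co-culture libraries, against 6.39, 4.56 and 4.98 CPM in isolation libraries, and the phosphatase DUSP1 had 94.3, 106 and 151 CPM in co-culture libraries, against 32.7, 25.4 and 30.2 CPM in isolation libraries. NR4A1 rose 2.23-fold and JUND 1.65-fold, whereas KLF4 fell 1.97-fold and EGR2 2.47-fold. EGR2 did not pass without co-culture replicate 1 (log2 -0.85, adjusted p = 0.0775). EGR1 had overlapping groups (37.6 ± 12.8 CPM from co-culture and 18.3 ± 5.91 CPM in isolation), and without isolation replicate 2 or 3, or co-culture replicate 2 or 3, it did not pass (adjusted p = 0.144, 0.147, 0.169 and 0.101). Nor did EGR1 pass with the replicate block (adjusted p = 0.0795) or with no filter on low counts (0.0764). FOSB, ATF3 and PPP1R15A did not pass (log2 0.13, 0.17 and -0.01). The lower count was 1 without co-culture replicate 1 and 3 without isolation replicate 1. The co-culture cells alone were sorted before lysis, as stated above. The part of sorting in these changes was not tested and cannot be told apart from co-culture itself. Among genes of MAPK feedback 7 of 21 were higher and 4 lower. The phosphatases DUSP5 and DUSP8 rose 1.55-fold and 2.61-fold, DUSP6 did not pass (log2 0.18), and the receptor EPHA4 fell 2.39-fold. The lower count was 2 without isolation replicate 2 or without co-culture replicate 3. In the EGF family 7 of 12 were lower and 0 higher. The receptor EGFR had 191, 284 and 276 CPM in co-culture libraries, against 374, 349 and 358 CPM in isolation libraries and fell 1.44-fold, and its ligands TGFA, EREG and AREG fell 1.43-fold, 1.56-fold and 1.27-fold. Without co-culture replicate 1 EGFR did not pass (adjusted p = 0.0768). YAP and TAZ targets had 5 higher and 4 lower of 20, among them ANKRD1 at 1125 ± 59.1 CPM from co-culture and 611 ± 17.9 CPM in isolation and MYOF at 704 ± 114 CPM from co-culture and 1078 ± 37.03 CPM in isolation. DESeq2 called 8 of them higher.

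TGF-beta genes moved in both directions. Of 30 tested 12 were lower and 7 higher. PMEPA1 (chromosome 20, 57648392 to 57711536, minus strand), a feedback inhibitor induced by TGF-beta, had 24.7, 27.2 and 28.95 CPM in co-culture libraries, against 83.9, 98.4 and 87.1 CPM in isolation libraries and fell 3.33-fold (log2 -1.74 ± 0.11, adjusted p = 9.1e-10). The inhibitors SMAD7 and SKIL fell 2.08-fold and 2.08-fold, and the latent TGF-beta binding proteins LTBP1 and LTBP3 fell 2.29-fold and 2.87-fold. ID1, ID2 and ID3, classic targets of BMP signals, rose. ID1 had 169, 152 and 166 CPM in co-culture libraries, against 63.3, 76.6 and 63.2 CPM in isolation libraries, and ID3 had 53.1, 55.3 and 52.95 CPM in co-culture libraries, against 25.04, 21.7 and 21.2 CPM in isolation libraries. INHBB, which encodes an activin subunit, rose 2.93-fold. The ligand TGFB1 and the target TGFBI did not pass (log2 -0.01 and -0.15).

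More matrix and adhesion genes were lower than higher in each list. Of 18 collagen chains 10 were lower and 2 higher, of 23 matrix glycoproteins and crosslinkers 8 and 1, of 22 proteases and inhibitors 11 and 3, and of 22 integrins and laminins 13 and 1. COL7A1 (chromosome 3, 48564073 to 48595267, minus strand), the collagen of anchoring fibrils, had 28.8, 16.7 and 28.4 CPM in co-culture libraries, against 102, 124 and 115 CPM in isolation libraries and fell 4.61-fold (log2 -2.21 ± 0.23). Chains of the basement membrane laminin that those fibrils bind fell unequally, LAMA3 2.46-fold and LAMB3 1.36-fold. Their hemidesmosome partners ITGA6, ITGB4 and COL17A1 fell 1.39-fold, 1.399-fold and 3.22-fold. COL6A3 fell 4.72-fold and COL6A1 2.03-fold, but COL6A2 did not pass (log2 0.27). COL8A1, a short-chain collagen, rose instead, with 166, 185 and 159 CPM in co-culture libraries, against 64.5, 64.4 and 64.1 CPM in isolation libraries. The higher collagen chains numbered 1 without any 1 of isolation replicates 1 and 2 or co-culture replicates 2 and 3, and the higher proteases and inhibitors 1 without isolation replicate 2 or co-culture replicate 2 or 3.

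Among matrix glycoproteins, THBS1, which encodes thrombospondin 1, had 973, 1163 and 1111 CPM in co-culture libraries, against 2241, 2184 and 2229 CPM in isolation libraries, and FN1, which encodes fibronectin, had 238, 234 and 341 CPM in co-culture libraries, against 468, 487 and 457 CPM in isolation libraries. The tenascin gene TNC did not pass (log2 0.40 ± 0.18). In the plasminogen system PLAT fell 2.83-fold, PLAU 1.67-fold and its receptor PLAUR 1.48-fold. TIMP1, an inhibitor of metalloproteases, had 159.7, 152 and 175 CPM in co-culture libraries, against 490.2, 465 and 423 CPM in isolation libraries, while TIMP2 and TIMP3 did not pass (log2 0.16 and -0.27). MMP14, a membrane protease, fell 1.895-fold. Of the collagen chains 11 of 18 and of the integrins and laminins 10 of 22 lie in the longest bin of 5 bins of transcript length, where 33.0% of genes were lower (values below).

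Epithelial genes rose more often than they fell. Among epithelial junction and keratin genes 10 of 26 were higher and 3 lower. OCLN, which encodes occludin, had 29.5, 25.98 and 22.6 CPM in co-culture libraries, against 13.2, 15.3 and 12.9 CPM in isolation libraries, and CD24 had 10.9 ± 1.29 CPM from co-culture and 4.81 ± 0.896 CPM in isolation. The keratins KRT8, KRT18 and KRT19 rose 1.53-fold, 1.303-fold and 1.42-fold. CDH1, which encodes E-cadherin, was near the limit of detection and fell (0.172 ± 0.0605 CPM from co-culture and 0.50004 ± 0.0822 CPM in isolation), and MUC1 fell 2.06-fold. MUC1 did not pass without isolation replicate 1 or co-culture replicate 2 (adjusted p = 0.056 and 0.0569). Among mesenchymal genes 3 of 13 were higher and 5 lower, or 3 lower without any 1 of isolation replicate 2, co-culture replicate 1 and co-culture replicate 3. CDH11 had 22.9, 21.4 and 23.8 CPM in co-culture libraries, against 58.2, 57.7 and 56.99 CPM in isolation libraries, and S100A4 had 91.7, 53.3 and 77.7 CPM in co-culture libraries, against 183, 183 and 169 CPM in isolation libraries. VIM, SNAI2 and ZEB2 did not pass (log2 0.14, -0.23 and -0.20), ZEB1 fell 1.22-fold, a call lost without any of 4 single libraries (adjusted p = 0.0522 to 0.108), and TAGLN, an actin-binding protein of smooth muscle, rose 2.27-fold. The caveolae gene CAV1 had 583, 541 and 497 CPM in co-culture libraries, against 827, 983 and 1047 CPM in isolation libraries and fell 1.76-fold.

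Enzymes of amino acid metabolism rose more often than they fell, mostly by small amounts. Of 18 serine, glycine and folate enzymes 12 were higher and 1 lower. PHGDH, the first enzyme of serine synthesis, had 7.61, 11.3 and 8.41 CPM in co-culture libraries, against 3.59, 2.701 and 3.88 CPM in isolation libraries. PSAT1 and SHMT2 rose 1.44-fold and 1.45-fold. The one fall was AMT, a subunit of the glycine cleavage system, with 0.537, 0.176 and 0.255 CPM in co-culture libraries, against 3.84, 3.11 and 3.005 CPM in isolation libraries. Of 18 glutamine, aspartate and asparagine enzymes 8 were higher and 2 lower. GOT1, which makes aspartate, rose 1.46-fold, while the asparagine synthetase ASNS did not pass (log2 -0.04). Amino acid transporters had 3 higher and 6 lower of 24, or 3 lower without isolation replicate 2, with the glutamine transporter SLC1A5 up 1.39-fold. ATF4 targets had 11 higher and 3 lower of 23, or 5 higher without isolation replicate 2, with TRIB3 at 57.6 ± 3.65 CPM from co-culture and 25.99 ± 5.24 CPM in isolation and VEGFA at 118 ± 6.63 CPM from co-culture and 221 ± 9.34 CPM in isolation. Of 20 tRNA synthetases 14 were higher and 0 lower, but 6 were higher without isolation replicate 2 and 7 without co-culture replicate 2.

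In glucose metabolism 13 of 26 genes were higher and 2 lower. ALDOC, a brain-type aldolase that responds to sterol regulation and hypoxia in various cells, had 27.9, 14.7 and 26.2 CPM in co-culture libraries, against 4.76, 4.38 and 3.66 CPM in isolation libraries. ENO1, GAPDH and PGAM1 rose 1.25-fold, 1.21-fold and 1.305-fold, and the glucose transporter SLC2A1 fell 1.27-fold. Hypoxia targets did not move together, with 2 higher and 5 lower of 22: the peptide ADM rose 2.22-fold, CA9 did not pass and VEGFA fell 1.87-fold. IDH1, the cytosolic isocitrate dehydrogenase that yields NADPH, had 96.5, 69.5 and 74.5 CPM in co-culture libraries, against 35.02, 37.1 and 38.4 CPM in isolation libraries. It led both the pentose phosphate and NADPH list (6 higher and 2 lower of 14) and the tricarboxylic acid cycle list (12 and 2 of 24). Purine and pyrimidine synthesis had 11 higher and 1 lower of 21, and polyamine genes 6 and 0 of 13. ODC1, the rate-limiting enzyme of polyamines, had 428, 488 and 422 CPM in co-culture libraries, against 302, 262 and 328 CPM in isolation libraries, and ARG2, a mitochondrial arginase, rose 2.66-fold. Without isolation replicate 2 the higher purine and pyrimidine genes numbered 7.

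Genes of translation, respiration and folding rose by small and even amounts. All 31 ribosomal protein genes tested were higher, with a median log2 of 0.50, and summed to 34621, 32250.5 and 31088 CPM from co-culture and 23886, 22031 and 22428 CPM in isolation. Of 29 mitochondrial ribosomal genes 26 were higher (median log2 0.34), of 40 respiratory chain genes 28 (0.36), of 20 heat shock chaperones 16 (0.36), of 24 ribosome biogenesis genes 13 (0.25) and of 27 proteasome subunits 14 (0.22), and none of these lists had a lower member. RPL27 rose 1.59-fold and RPLP0 1.48-fold, the ATP synthase gene ATP5B rose 1.44-fold, and the mitochondrial chaperone HSPD1 rose 1.44-fold. The heat shock gene HSPA1A, which is quickly induced by heat, did not pass (log2 0.06). The counts for ribosome biogenesis fell to 8 without isolation replicate 2 or co-culture replicate 2, and for the proteasome to 9 without isolation replicate 2 and 8 without co-culture replicate 1. In the endoplasmic reticulum 7 of 23 folding genes were higher and 0 lower, with HSPA5, the chaperone BiP, up 1.26-fold and XBP1 not passing. That count was 3 without isolation replicate 2 and 4 without isolation replicate 3 or co-culture replicate 2.

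Transcript length moved with these results. Protein-coding genes were split into 5 bins of equal size by their longest GENCODE transcript, of 177 to 1986 nt in the shortest bin and 5833 to 34526 nt in the longest. The share of genes higher from co-culture was 33.9% in the shortest bin and 9.79% in the longest, and the share lower was 13.0% and 33.0%. Median log2 fold changes by bin were 0.16, 0.05, -0.02, -0.07 and -0.17 from short to long. Of the ribosomal protein genes 22 of 31 lie in the shortest bin, of the mitochondrial ribosomal genes 26 of 29, of the respiratory chain genes 24 of 35 and of the sterol genes 7 of 25. Of the interferon-stimulated genes 8 of 36 lie in the shortest and 8 in the longest bin, and of the HLA class II genes 8 of 11 in the shortest. The part of length in the small rises was not tested.

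**Figure D3:**
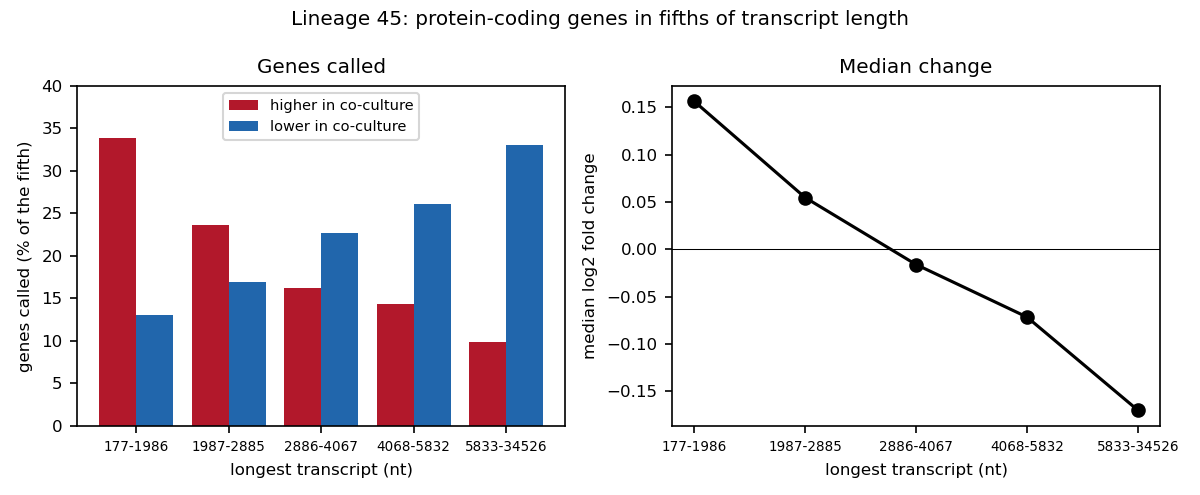
Protein-coding genes of lineage 45 in 5 bins of the longest transcript (nt), with the share called higher (left bar) and lower (right bar) in co-culture on the left panel and the median log2 fold change on the right panel. The share higher runs from 33.9% in the shortest bin to 9.79% in the longest, and the median from 0.16 to -0.17.

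Several long RNAs known to stay in the nucleus fell. MALAT1 (chromosome 11, 65497688 to 65506516, plus strand), a long RNA of nuclear speckles, had 42.5, 15.6 and 22.1 CPM in co-culture libraries, against 147, 146 and 153 CPM in isolation libraries. Co-culture replicate 1 was the highest of its group. NEAT1, the scaffold of paraspeckles, had 96.001, 20.7 and 38.3 CPM in co-culture libraries, against 218, 239 and 236 CPM in isolation libraries and fell 4.47-fold (adjusted p = 0.0137). Without co-culture replicate 2 NEAT1 did not pass (log2 -1.78, adjusted p = 0.0501). KCNQ1OT1, an imprinted antisense RNA, had 1.44 ± 0.2004 CPM from co-culture and 8.91 ± 1.48 CPM in isolation, and the antisense reads depend on the counting, which is not stated to use strand. GAS5, a host of small nucleolar RNAs that was listed with these RNAs, rose 1.58-fold, and whether it stays in the nucleus was not tested. Of the 6 RNAs tested in that list 5 fell and 1 rose. By annotated class, 39.9% of 276 pseudogenes, 29.9% of 204 lincRNAs and 28.3% of 244 antisense genes were lower, against 22.3% of 12854 protein-coding genes. The shares higher were 7.25%, 10.8%, 9.43% and 19.5% in the same order. Of 25 splicing regulators 11 were lower and 3 higher, led by PNISR (33.2 ± 3.88 CPM from co-culture and 70.6 ± 4.12 CPM in isolation) and LUC7L3 (71.8 ± 3.99 CPM from co-culture and 128 ± 5.51 CPM in isolation), and 1 was higher without isolation replicate 2.

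Cell cycle genes passed in both directions, and the shares of replication genes were near the 18.6% higher and 23.2% lower of all genes tested. Of 36 DNA replication genes 7 were higher and 8 lower, of 33 mitotic genes 5 and 5, and the higher counts depended on the library, at 3 replication genes and 1 mitotic gene without isolation replicate 3 and 2 mitotic genes without isolation replicate 2. Without co-culture replicate 3 the higher mitotic genes numbered 9, and DESeq2 called 10. The lower replication genes numbered 5 without isolation replicate 1, and the lower mitotic genes 3 without isolation replicate 2 or 3. PCNA had 195 ± 9.59 CPM from co-culture and 183 ± 10.7 CPM in isolation and did not pass, and CDK1 did not pass (log2 0.04). POLE, the leading strand polymerase, fell 1.74-fold, CENPF 1.48-fold and MKI67, the proliferation marker Ki-67, 1.56-fold. MKI67 had 510.3, 611 and 863 CPM in co-culture libraries, against 1087, 1041 and 960.3 CPM in isolation libraries, and its fall did not pass without any 1 of isolation replicates 1, 2 and 3 or co-culture replicates 1 and 2 (adjusted p = 0.0602 to 0.145), with RLE scaling (0.0543) or with no filter (0.0807). CDC20, an activator of the anaphase-promoting complex, rose 1.41-fold. One of 13 clustered histone genes, HIST1H1E, was higher. Among p53 targets 3 of 20 were higher and 4 lower, with CDKN1A at log2 -0.24 ± 0.08 and MDM2 not passing. The higher p53 targets numbered 1 without isolation replicate 2 or co-culture replicate 1. CDKN1A lost its call without isolation replicate 1 or co-culture replicate 2 (adjusted p = 0.0679 and 0.127), and with the compared groups alone (0.0955). Apoptosis regulators split evenly, 7 higher and 7 lower of 25: BMF, a sensitizer, had 2.59 ± 0.7296 CPM from co-culture and 8.65 ± 2.37 CPM in isolation, and the inflammatory caspase CASP4 rose 1.65-fold.

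Detoxification genes under NRF2 fell more often than they rose. Of 26 tested 11 were lower and 5 higher. The quinone reductase NQO1 had 249, 269 and 240.1 CPM in co-culture libraries, against 349.6, 369.7 and 426 CPM in isolation libraries, the conjugate exporter ABCC3 fell 2.87-fold, and the glutathione enzymes GCLC and GCLM fell 1.41-fold and 1.33-fold. Without isolation replicate 3 GCLM did not pass (adjusted p = 0.0791), and without isolation replicate 2 the higher NRF2 targets numbered 3. AKR1C3, a reductase that shares sequence with AKR1C1 and AKR1C2, had 10.05 ± 2.11 CPM from co-culture and 19.5 ± 3.11 CPM in isolation. TXN, which encodes thioredoxin, rose 1.402-fold, and HMOX1 did not pass (log2 0.05). Lysosome and autophagy genes had 6 higher and 7 lower of 31, where the protease CTSB fell 1.401-fold. Metallothioneins and zinc carriers had 3 higher and 1 lower of 7, the lower one being SLC30A1 (log2 -0.26 ± 0.10, adjusted p = 0.0478). SLC30A1 did not pass without isolation replicate 1 or 3 or any co-culture library (adjusted p = 0.0601 to 0.157).

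Smaller groups held single large changes. Among Wnt genes 2 of 16 were higher and 3 lower. WNT5A (chromosome 3, 55465715 to 55490539, minus strand), a ligand of the non-canonical pathway, had 3.42, 2.78 and 1.81 CPM in co-culture libraries, against 0.112, 0.05402 and 0.2003 CPM in isolation libraries, and the canonical target AXIN2 did not pass (log2 -0.30). Notch genes had 4 higher and 4 lower of 15: the ligand JAG1 had 129.7, 136 and 150.5 CPM in co-culture libraries, against 214, 242 and 237 CPM in isolation libraries and its target HES1 fell 1.35-fold. HES1 did not pass without isolation replicate 2, co-culture replicate 1 or co-culture replicate 2 (adjusted p = 0.0661, 0.0835 and 0.0693). Core circadian genes had 2 higher and 7 lower of 18, with PER2 lower and PER1 and NR1D1 not passing. The lower count there was 4 without isolation replicate 2 or without co-culture replicate 3. Complement genes had 7 lower and 2 higher of 15, with CFB at 4.203 ± 0.961 CPM from co-culture and 8.95 ± 1.55 CPM in isolation and C3 at 0.286 ± 0.0468 CPM from co-culture and 1.41 ± 0.311 CPM in isolation. S100 genes had 4 lower and 1 higher of 10, or 2 lower without co-culture replicate 2.

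Chromosome 7 shifted as a whole. Of 600 protein-coding genes tested there 282 were lower (47.0%) and 27 higher (4.50%), against 22.3% and 19.5% over all 12854 placed genes. The median log2 difference from the isolation mean was -0.24, -0.26 and -0.31 in co-culture replicates 1 to 3, and -0.02 for the fitted median over all chromosomes. Isolation libraries set against the mean of the others gave 0.01, 0.00 and -0.00 on chromosome 7, so the groups do not overlap there. All 12 windows of 50 neighbouring genes had medians from -0.39 to -0.18. The median log2 difference from isolated lineage 45 on chromosome 7 was -0.47 in isolated lineage 22 and -0.10 in isolated lineage 35. On chromosome X these differences were 0.46 and -0.16. The median log2 response of chromosome 7 was 0.06 in lineage 22 and 0.02 in lineage 35. On chromosome X 32.1% of 424 genes were lower and 12.5% higher (median -0.13), and the shift was largest in 2 windows with medians of -0.36 and -0.57. The median response of X genes was -0.80 in lineage 22 and 0.28 in lineage 35, where windows ran from -1.14 to 1.16. Without the genes placed on chromosome 7, 2681 genes were higher and 3059 lower.

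**Figure D4:**
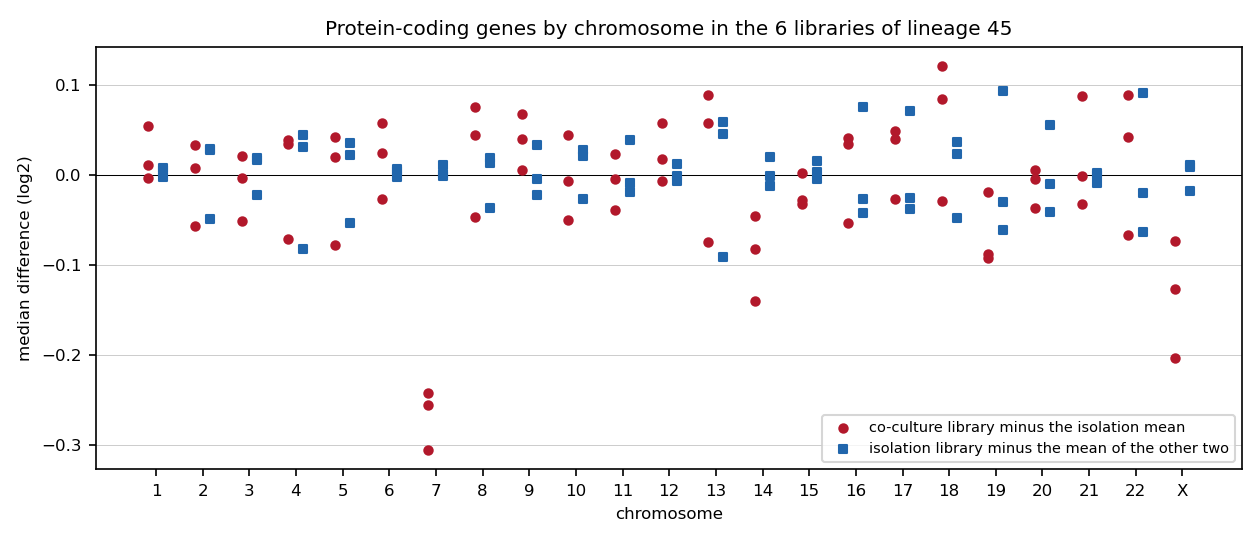
Median log2 difference of protein-coding genes by chromosome, with circles for each co-culture library minus the isolation mean and squares for each isolation library minus the mean of the others. Chromosome 7 stands at -0.24 to -0.31 in co-culture, below every other chromosome, and the isolation libraries lie near 0 there.

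Against the other lineages the response of lineage 45 was tested gene by gene, as the difference between its fold change and theirs in the same fit. It was above that of lineage 22 in 1177 genes (8.08%) and below in 1347 (9.25%), and above that of lineage 35 in 2838 (19.5%) and below in 3320 (22.8%). The 9 marks of isolated lineage 35 summed to 5.72, 6.70 and 7.08 CPM in the libraries labelled 35 from co-culture. In isolated lineage 35 they summed to 207 to 222.5 CPM, so the difference from lineage 35 may not compare responses of the same cells. Genes that changed in lineage 45 and beyond both others in the same direction numbered 120 higher and 172 lower. A further 49 fell in lineage 45 with a response above both others, and 44 rose with a response below both. Of the 2711 higher and 3375 lower genes of lineage 45, 1132 and 1543 were called in the same direction in both other lineages. In opposite direction to both others, 26 were higher and 33 lower in lineage 45.

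LSR rose more in lineage 45 than elsewhere: its log2 fold change was 3.93 ± 0.15 in lineage 45, 1.43 ± 0.13 in lineage 22 and -0.17 ± 0.12 in the libraries labelled 35. The differences were 2.50 ± 0.19 from lineage 22 (adjusted p = 3.67e-08) and 4.09 ± 0.19 from lineage 35 (adjusted p = 6.14e-13). The receptor LRP3 (chromosome 19, 33177603 to 33208867, plus strand) had 6.25, 6.35 and 6.31 CPM in co-culture libraries, against 2.13, 1.81 and 1.93 CPM in isolation libraries, and its log2 fold change was 1.69 ± 0.11 in lineage 45, against -0.51 ± 0.10 in lineage 22 and -2.59 ± 0.11 in lineage 35. RIMS2, a scaffold of vesicle release, had 8.401, 7.46 and 5.49 CPM in co-culture libraries, against 2.86, 2.48 and 3.73 CPM in isolation libraries. EMB, FRMD3 and NLRP2 also rose more than in both others, and these 3 mark isolated lineage 22. For NLRP2 the difference from the libraries labelled 35 did not pass without isolation replicate 1 or 3, or co-culture replicate 2 or 3, of lineage 45 (adjusted p = 0.0523 to 0.139). AKR1C3 fell in all 3 lineages and least in lineage 45, at -0.95 ± 0.23, against -2.40 ± 0.23 in lineage 22 and -3.00 ± 0.25 in lineage 35.

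Genes whose response lay below both others included transporters, enzymes and a semaphorin. SLC4A11 (chromosome 20, 3227417 to 3239559, minus strand), a membrane transporter of the corneal endothelium, had 23.2, 17.8 and 24.9 CPM in co-culture libraries, against 55.4, 58.99 and 58.4 CPM in isolation libraries. Its log2 fold change was -1.39 ± 0.12, against -0.12 ± 0.12 in lineage 22 and 0.73 ± 0.13 in lineage 35. TBXAS1 (chromosome 7, 139777051 to 140020325, plus strand), the thromboxane synthase, had 9.11, 6.79 and 9.62 CPM in co-culture libraries, against 14.7, 14.3 and 13.3 CPM in isolation libraries and a log2 fold change of -0.73 ± 0.15, against 0.82 ± 0.16 and 2.77 ± 0.18. ENPP1, an ectonucleotidase that makes pyrophosphate, had 147, 106 and 121 CPM in co-culture libraries, against 189.6, 213 and 191 CPM in isolation libraries and fell in lineage 45 while it rose in both others. The semaphorin SEMA3E, 1 of the 3 marks of lineage 45, rose in all 3 and least in lineage 45 (13.5 ± 0.914 CPM from co-culture and 7.98 ± 1.09 CPM in isolation). B4GALNT3, ICA1, ITGBL1 and SHANK2 fell in lineage 45, at log2 -0.97, -0.86, -0.57 and -0.81. TBXAS1, SEMA3E and ICA1 lie on chromosome 7, whose median shift is given above.

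**Figure D5:**
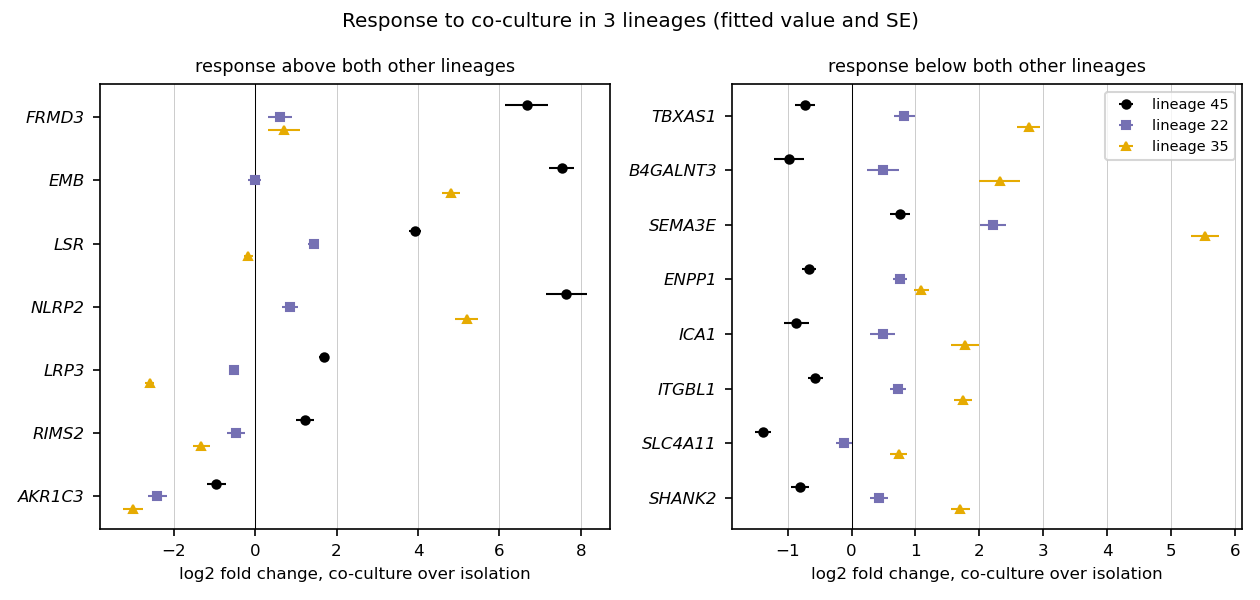
Fitted log2 fold change, co-culture over isolation, with its SE in lineages 45, 22 and 35 for 7 of the genes whose response was furthest above both other lineages and the 8 furthest below. FRMD3, EMB and NLRP2 lie beyond 6 in lineage 45, and in the right panel every gene but SEMA3E is below 0 in lineage 45.

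Counts of list members whose response differed from the other lineages are read against all genes tested, of which 8.08% lay above and 9.25% below lineage 22, and 19.5% above and 22.8% below lineage 35. Of 36 interferon-stimulated genes 4 responded above and 8 below lineage 22, and 2 above and 25 below lineage 35. Of 27 cytokine genes 9 lay above and 0 below lineage 22, and 3 lay above and 16 below lineage 35. Of 36 DNA replication genes 17 responded below lineage 22 and 1 above, but 9 responded above lineage 35 and 2 below. Of 16 class I genes 4 lay above and 0 below lineage 22, and 10 lay above and 2 below lineage 35. Of 25 sterol genes 3 lay above and 4 below lineage 22, and 7 lay above and 2 below lineage 35.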

How the data were processed

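RNA of 18 libraries in 6 groups (lineages 22, 35 and 45, each from co-culture and in isolation, 3 libraries each) shares the table used here. Libraries were made with a stranded mRNA ligation kit from 500 ng of RNA and read as paired 75 nt, per the labels' protocols. RNA was extracted with RNeasy Plus Mini after sorting for co-culture, and with TRIzol and RNeasy Mini for isolation. The deposited values are estimated counts per gene scaled by transcript length, which the authors made before deposit, and they need not be whole. STAR 2.6.1d, Salmon 1.4.0 and the GRCh38/hg38 build are named in the submitters' processing notes. Length scaling and any error in it can shift genes by length.

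Counts were rounded to whole numbers and tested with edgeR 4.0.16 (robust quasi-likelihood test, TMM scaling, filterByExpr, all 18 libraries in 1 fit, Benjamini-Hochberg adjustment, threshold 0.05) in R 4.3.3. Adjusted p-values in the text come from that fit over the 14570 genes tested, unless an alternative or a left-out library is named. In those cases they come from the refit named and the genes tested in it. The SE is the log2 fold change divided by the square root of F. Differences from lineages 22 and 35 are interaction contrasts. Alternatives were DESeq2 1.42.0, RLE scaling, other filters, a replicate block, the compared groups alone, and leaving out single libraries. The test was also run on simulated data with known changes. Positions are from GENCODE v29 and promoters from RefSeq (GRCh38.p14). Of the genes tested, 10665 had a promoter in the table.

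The members and gene lists were chosen with earlier results of these data known. Named genes are the 12 largest rises and falls at 5 CPM or more and the 8 largest at 100 CPM or more. Both sets were taken only from called genes without overlap of libraries. Also named are the 8 furthest above or below both other lineages. Clone-like names were left out of these rankings by a pattern that also matches some ordinary symbols, such as ACSS2. Up to 4 members of each list by smallest p are added, with members of a defining role. Further list members were named after their values were seen, and some genes that meet these rules are not reported here. Counting is not stated to use strand. Same-numbered libraries of lineages 45 and 22 from co-culture deviated together (r = 0.36, 0.25 and 0.17), which comes from the data and not from the labels. Those of lineage 45 from co-culture and in isolation did not (r = -0.11, -0.05 and -0.22).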

Additional observations from a re-analysis of the deposited data

Results flagged for a closer look

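The response of lineage 45 to co-culture differed from that of the other lineages by a test of the difference itself, the interaction term in edgeR. It was above that of lineage 22 in 1177 genes and below in 1347, and above that of the libraries labelled 35 in 2838 genes and below in 3320.

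Of the genes above both, the log2 response of lineage 45 minus those of lineages 22 and 35 was 6.06 and 5.97 for FRMD3, 7.54 and 2.72 for EMB, 2.50 and 4.09 for LSR, 6.79 and 2.45 for NLRP2. It was 2.20 and 4.28 for LRP3, 1.70 and 2.56 for RIMS2, 1.45 and 2.05 for AKR1C3. EMB, FRMD3 and NLRP2 also mark isolated lineage 22, and the part of other cells in their rise was not tested. The difference of NLRP2 from the libraries labelled 35 did not pass without the filter on low counts (adjusted p = 0.0765) or with the compared groups alone (adjusted p = 0.0571).

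Below both, the differences were -1.55 and -3.50 for TBXAS1, -1.47 and -3.29 for B4GALNT3, -1.45 and -4.77 for SEMA3E, -1.42 and -1.76 for ENPP1. They were -1.35 and -2.64 for ICA1, -1.30 and -2.31 for ITGBL1, -1.27 and -2.12 for SLC4A11, -1.24 and -2.51 for SHANK2. TBXAS1, SEMA3E and ICA1 lie on chromosome 7, whose median response was -0.29 in lineage 45, 0.06 in lineage 22 and 0.02 in the libraries labelled 35.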

How the results depend on the processing

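The counts of genes higher and lower in lineage 45 from co-culture, and above or below the responses of lineages 22 and 35, stayed within 1.5 times of the reported counts in all 104 recomputed counts. Counts within gene lists were less stable, as 1401 recomputed list counts stayed within 1.5 times and 107 did not. Leaving out 1 library at a time gave 2059 to 2732 genes higher and 2755 to 3224 lower. The same gave 940 to 1329 above and 938 to 1493 below lineage 22, and 2572 to 2794 above and 2970 to 3285 below lineage 35. With the replicate block 2701 were higher and 3446 lower, and 1197 were above and 1358 below lineage 22, with 2832 above and 3332 below lineage 35. Same-numbered libraries of the compared groups share only a number in the labels. DESeq2 called 3241 higher and 3027 lower, and RLE scaling gave 3173 higher and 3034 lower. This moved the split between higher and lower calls, and the median of all genes moved from -0.03 to 0.01. Among single genes 4718 recomputed results kept their side of the threshold and direction, 52 no longer passed and none changed sign, and SLC30A1 lost its call in 11 settings, with adjusted p of 0.0532 to 0.157. Further alternatives were added after seeing the data. A block within the co-culture libraries of lineages 22 and 45 gave 1620 genes above and 1857 below lineage 22. Leaving out the genes placed on chromosome 7 gave 2681 higher and 3059 lower. The cause of these shifts was not tested. Genes with few counts in 1 group, such as NLRP2 with 3 in isolation, are limited by depth.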
